A study of Homo sapiens with 16 samples.

Results

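The H3K27ac domains that were listed in TC-71 and had no counterpart in TC-32 are described here. Members were distinct intervals of the TC-71 broad H3K27ac list on chromosomes 1 to 22 and X with a −log10 q of at least 5, q being the authors' adjusted p per domain, that shared no base with any TC-32 H3K27ac interval; they were thus chosen by measured values of both lines. There were 1680 such domains, among 14566 TC-71 domains past the same threshold (11.5%, exact 95% interval 11 to 12.1%) and 26334 TC-71 domains in all. The other 12886 domains past the threshold overlapped a TC-32 domain and serve as the comparison. The rule itself used the −log10 q and the overlap, so width, fold and q of the members are given as a description.

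TC-32 and TC-71 are established lines of Ewing sarcoma, a tumour of bone and soft tissue in young people whose usual driver is EWSR1 joined to an ETS transcription factor. Per the labels TC-32 stands for the time of diagnosis and TC-71 for a time after chemotherapy, and no treatment was applied in either. Chromatin was immunoprecipitated with antibodies against H3K27ac, SMC1 and BORIS, with an input, in 2 samples per line and antibody, and both lines were grown in the same serum-containing medium. Both samples of a line and antibody share 1 deposited peak list, so no value has a replicate error, the read depth is unknown, and no test between the lines was possible. Exact (Clopper-Pearson) 95% intervals beside shares cover counting error only, and a domain missing from the TC-32 list may lie below its threshold rather than lack acetylation.

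Acetylation of lysine 27 on histone H3 is laid down by the coactivators p300 and CBP at nucleosomes flanking active promoters and enhancers. Enhancers differ more between cell states than promoters do, and in Ewing sarcoma many of them are created where the EWSR1 fusion binds. SMC1 belongs to the cohesin ring, which extrudes chromatin loops and halts at the insulator protein CTCF, while a smaller part of cohesin lies at active enhancers without CTCF. BORIS (CTCFL) is a germ-line paralog of CTCF that is reactivated in some tumours.

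TC-71-only domains were narrower and weaker than domains found in both lines, although a small part of them was strong. Their widths ran from 171 to 17810 bp with a median of 1248 bp (quartiles 603 and 2370 bp), against a median of 1821 bp (1196 and 2766 bp) for the overlapping domains. The authors' mean fold enrichment over input had a median of 4.10 (3.76 and 4.54) against 5.13 (4.24 and 6.32). Narrow domains made up the clearest part of this gap, since 346 members (20.6%) were 500 bp or shorter, against 639 overlapping domains (4.96%). The shares wider than 4000 bp were closer, with 154 members (9.17%) and 1474 overlapping domains (11.4%). The widest overlapping domain spanned 48417 bp. Together the members covered 2.98 Mb.

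**Figure D1:**
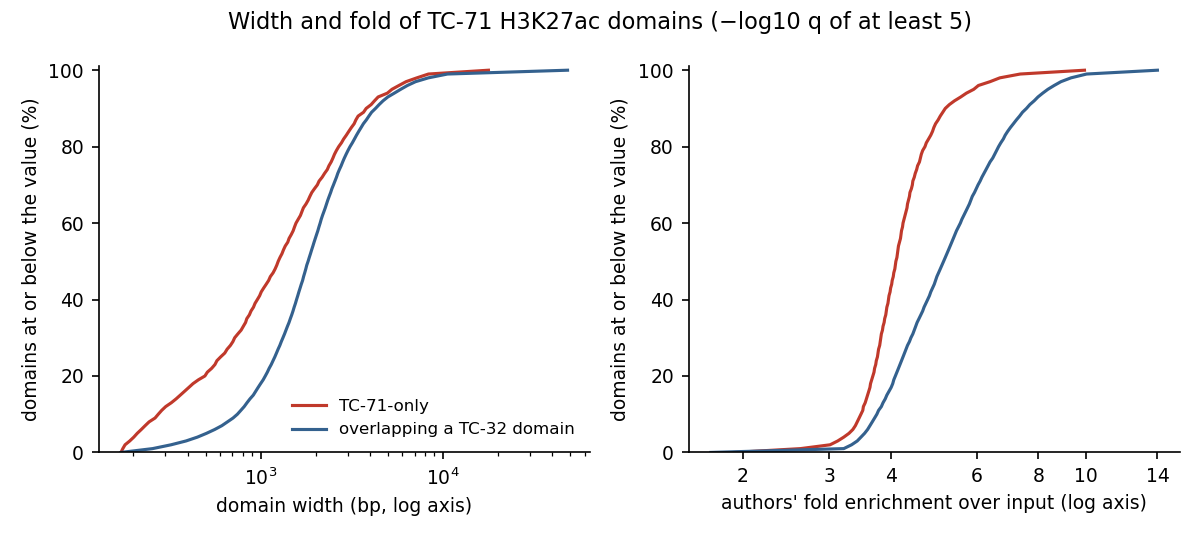
Cumulative share of TC-71 H3K27ac domains with a −log10 q of at least 5 (y axis, percent) up to a given width (left, bp, log axis) or authors' fold enrichment (right, log axis), for the 1680 TC-71-only domains (red) and the 12886 domains overlapping a TC-32 domain (blue). The red curves lie to the left, with medians of 1248 against 1821 bp and 4.10 against 5.13. The width curves come closer higher up, with 95th percentiles of 5258 and 5872 bp, but end apart at 17810 and 48417 bp.

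Most members lay close to the threshold, and the share of TC-71 domains without a TC-32 counterpart fell steadily with rank. Of the members 648 (38.6%) had a −log10 q below 6, 284 (16.9%) had at least 10 and 50 (2.98%) had at least 20. From the class of 5 to 6 upward, TC-71-only domains made up 36.9%, 23.4%, 12.9%, 6.26%, 2.71% and, at 20 or above, 1.28% of the TC-71 domains in the class. The 5 members nearest the threshold had folds of 3.32 to 4.14 and widths of 214 to 3468 bp. The 5 TC-71-only domains just below it had folds of 3.06 to 3.77 and widths of 929 to 3268 bp.

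The share of domains with cohesin in TC-71 was near the background at the members. An SMC1 peak of TC-71 shared at least 1 base with 193 of the 1680 members (11.5%, interval 10.00 to 13.1%), against a background of 12.7% over all 14566 domains and 1655 of the overlapping domains (12.8%, 12.3 to 13.4%). Per length of acetylated sequence the values were 53.8 TC-71 SMC1 summits per Mb in the members and 51.2 in the overlapping domains. SMC1 of TC-32 gave another picture. It lay at 200 members (11.9%, 10.4 to 13.5%), where the background was 26%, and at 3589 overlapping domains (27.9%, 27.1 to 28.6%), or 53.1 against 133 summits per Mb. With the TC-32 SMC1 list shortened to the length of the TC-71 list, these shares were 8.04% and 12.9%, so the difference was smaller in that setting.

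SMC1 summits gathered within 1 kb of the domain centre in all 4 settings. Around the members they reached 63.4 per 1000 domains and kb in TC-71 and 67 in TC-32, against flanking levels, 10 to 20 kb away, of 9.82 and 15.4. Around the overlapping domains the TC-71 value was 62.9, close to that of the members, while the TC-32 value was 146. The TC-32 SMC1 list was the longer, with 32720 peaks against 18264, and these values were not repeated with lists of equal length. As a set, the sites of the TC-71-only domains thus held more cohesin summits in TC-32 than their flanks did, without listed acetylation there.

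**Figure D2:**
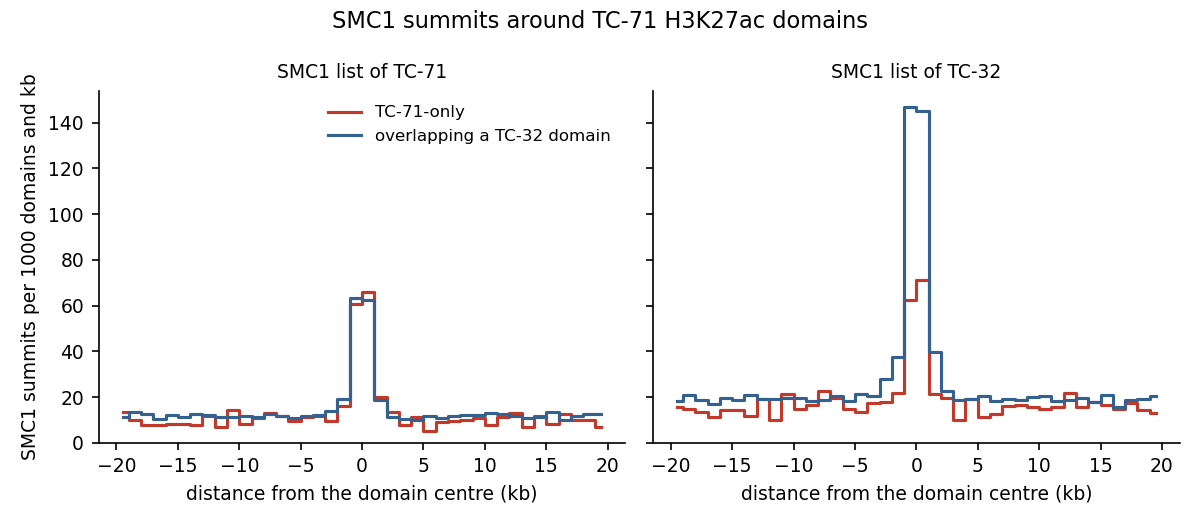
SMC1 summits per 1000 domains and kb (y axis) in bins of 1 kb up to 20 kb on either side of the domain centre (x axis, kb), for the SMC1 lists of TC-71 (left) and TC-32 (right), around TC-71-only domains (red) and overlapping domains (blue). The curves coincide at the centre for TC-71 (63.4 and 62.9 within 1 kb) and separate for TC-32 (67 and 146). The full lists are shown, of which that of TC-32 is the longer.

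Read together, the SMC1 lists divided the members into 136 with SMC1 in both lines (8.10%, 6.84 to 9.50%), 57 with SMC1 in TC-71 alone (3.39%, 2.58 to 4.37%), 64 with SMC1 in TC-32 alone (3.81%, 2.95 to 4.84%) and 1423 with neither (84.7%, 82.9 to 86.4%). The background for SMC1 in TC-71 alone was 1.36% and for SMC1 in TC-32 alone 14.7%. Among the overlapping domains SMC1 was listed in TC-71 alone at 141 (1.09%, 0.922 to 1.29%) and in TC-32 alone at 2075 (16.1%, 15.5 to 16.7%). Where a member had SMC1 in TC-71, the domain also held a TC-32 SMC1 peak, at the same place or not, in 136 of 193 cases (70.5%, 63.5 to 76.8%). For overlapping domains it was 1514 of 1655 (91.5%, 90.03 to 92.8%). Seen from the cohesin side, 58 of the 201 TC-71 SMC1 peaks in members had no TC-32 peak (28.9%, 22.7 to 35.6%). The share was 11.1% (9.66 to 12.6%) in overlapping domains and 9.31% (8.86 to 9.77%) for SMC1 peaks in no TC-71 domain.

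Of the classes by cohesin, members with SMC1 in TC-71 alone had the highest median acetylation. The 57 members with SMC1 in TC-71 alone had a median H3K27ac fold of 4.92 (quartiles 4.40 and 5.65), against 3.92 (3.63 and 4.47) for the 136 with SMC1 in both lines and 4.10 for the 1423 with neither. The 64 members with SMC1 in TC-32 alone had a median fold of 4.08 (3.80 and 4.52), near that of members with neither. The TC-71 SMC1 peaks of the 57 were weaker, with a median SMC1 fold of 4.82 against 6.37 where both lines had a peak. This was not particular to the members, since the overlapping domains had medians of 4.22 and 5.64 in the same order. Median widths were close, at 1716 bp with SMC1 in TC-71 alone and 1819 bp with SMC1 in both lines. The upper quartiles of width were further apart, at 4446 and 3157 bp in the same order. Members with SMC1 in neither line were narrower, with a median of 1178 bp.

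The share with SMC1 in TC-71 alone rose with the rank of the domain among members and stayed low among overlapping domains. From the lowest to the highest class of −log10 q it was 0.617%, 1.87%, 4.21%, 9.09%, 12.1% and 22% of the members. In the overlapping domains it was 0.542% in the lowest class and 1.40% in the highest, with the other classes in between. At the top, with a −log10 q of at least 20, this was 11 of 50 members (22%, 11.5 to 36%) against 54 of 3868 overlapping domains (1.40%, 1.05 to 1.82%). SMC1 in TC-32 showed no such course in the members, with shares from 11% to 17.2% whose intervals overlap. Higher-ranked members were also wider, with a median of 936 bp in the lowest class and 2682 bp in the highest, which gives a peak more room to overlap. Within domains of 1000 to 2000 bp and a −log10 q of at least 10, SMC1 in TC-71 alone was found at 10 of 83 members (12%, 5.93 to 21%) and 27 of 3312 overlapping domains (0.815%, 0.538 to 1.18%). From 2000 to 4000 bp the intervals overlapped, with 3 of 77 members (3.90%, 0.811 to 11%) and 44 of 3210 overlapping domains (1.37%, 0.998 to 1.84%). Above 4000 bp it was found at 17 of 66 members (25.8%, 15.8 to 38%) and 22 of 1157 overlapping domains (1.90%, 1.20 to 2.86%). Below 1000 bp the counts were small, with 3 of 37 members against 5 of 763 from 500 to 1000 bp and 1 of 21 against 1 of 147 up to 500 bp. Over all widths the shares at this rank were 12% (8.44 to 16.3%) and 1.15%, and with SMC1 lists of equal length 14.8% and 4.20%.

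**Figure D3:**
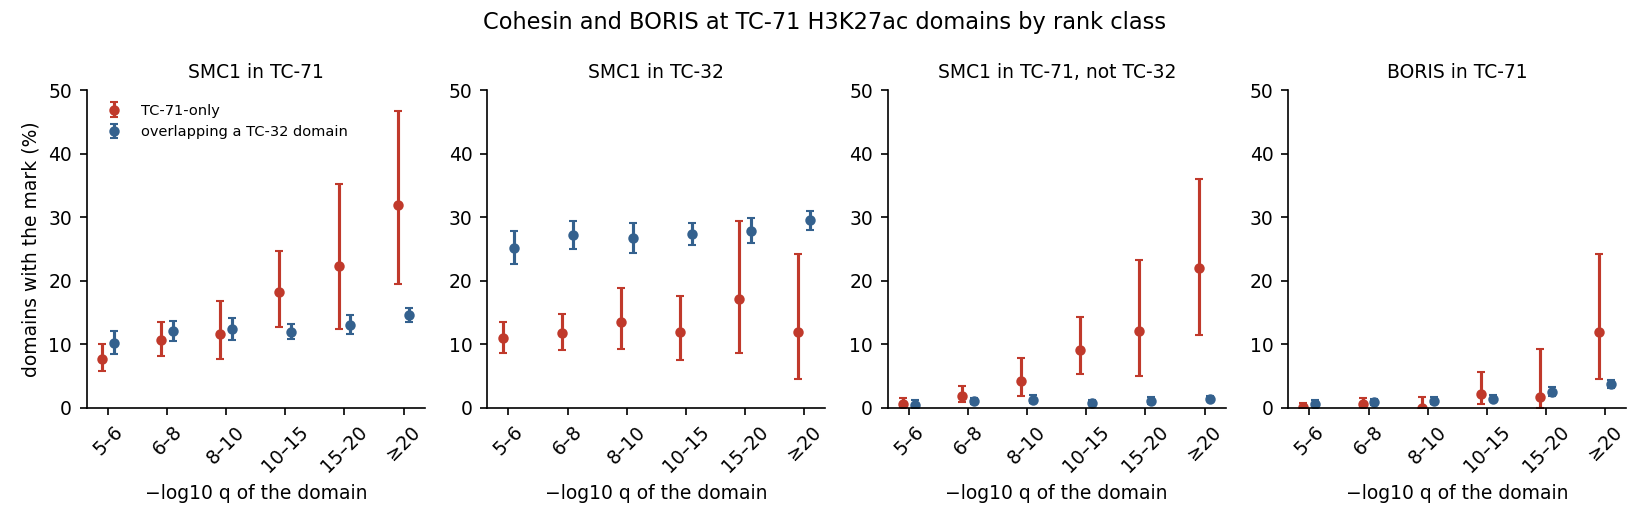
Share of TC-71 H3K27ac domains (y axis, percent, points with exact 95% intervals) that hold an SMC1 peak of TC-71, an SMC1 peak of TC-32, an SMC1 peak of TC-71 and none of TC-32, or a BORIS peak of TC-71 (panels from left to right), by class of the domain's −log10 q (x axis), for TC-71-only (red) and overlapping domains (blue). In the third panel the red points climb from 0.617% to 22% while the blue ones stay at or under 1.40%.

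BORIS lay at few members, and at most of them together with cohesin. A TC-71 BORIS peak overlapped 15 of the 1680 members (0.893%, 0.501 to 1.47%), under the background of 2% and the 276 overlapping domains (2.14%, 1.90 to 2.41%). None of the 6 TC-32 BORIS peaks lay in a member (0 of 1680, upper bound 0.219%), where the background was 0.0137%. Of the 15, 13 had SMC1 in TC-71 (86.7%, 59.5 to 98.3%), against 153 of the 276 overlapping domains with BORIS (55.4%, 49.4 to 61.4%). SMC1 of TC-32 was listed at 7 of the 15 (46.7%, 21.3 to 73.4%) and at 202 of the 276 (73.2%, 67.5 to 78.3%). By rank, BORIS lay at 6 of the 50 members with a −log10 q of at least 20 (12%, 4.53 to 24.3%) and at 146 of 3868 overlapping domains of that rank (3.77%, 3.20 to 4.42%). At a −log10 q below 10 it lay at 4 of 1396 members (0.287%, 0.0781 to 0.732%) and 39 of 4297 overlapping domains (0.908%, 0.646 to 1.24%).

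The 15 domains fell into 3 kinds by cohesin. In 6 of them SMC1 was listed in TC-71 with no TC-32 peak. They lay at 1p31.3 (chr1:63787758-63793966, H3K27ac fold 7.43, BORIS fold 5.85, SMC1 fold 5.73), 22q11.22 (chr22:22900964-22901673; 7.79, 5.48 and 3.81 in the same order) and 9p13.3 (chr9:33523332-33525047; 6.49, 6.40 and 3.81). The others were at 16p13.3 (chr16:2866631-2868369; 5.02, 6.45 and 4.45), 7p22.3 (chr7:1208914-1209946; 5.35, 4.78 and 5.14) and Xq26.3 (chrX:134909285-134910523; 4.16, 6.12 and 5.16). The nearest TC-32 SMC1 peak was 16 bp away at Xq26.3, so that site is a borderline case, and 4.88 to 56.4 kb away at the other 5. At 22q11.22 the TC-71 SMC1 peak shared bases with the domain, but its summit lay outside. Bands are hg19 cytogenetic bands; no gene table of that build was used, so a gene named with a band is textbook background and its overlap was not tested. The 1p31.3 band carries FOXD3, a transcription factor of early neural crest cells. The bands 22q11.22 and Xq26.3 carry PRAME and the CT45 family, cancer-testis genes that are silent in most adult tissues outside the germ line. The band 16p13.3 carries the testis serine protease gene PRSS21. These genes were picked after the loci were seen, and each band holds many other genes. None was picked for 9p13.3 and 7p22.3, so the names do not stand for the 6 loci as a set.

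In 7 more domains with BORIS, SMC1 was listed in both lines while acetylation was listed in TC-71 alone. The strongest was at 16q12.1 (chr16:47176717-47178334), with folds of 8.54 for H3K27ac, 9.42 for BORIS, and 9.60 and 11.1 for SMC1 in TC-71 and TC-32. At 2q31.1 (chr2:176943533-176951012), the band of the HOXD cluster and of its neighbour EVX2, a domain of 7480 bp lay 6.29 kb from the nearest TC-32 domain and had SMC1 folds of 11.6 in TC-71 and 26.3 in TC-32. Folds of separate lists are not on 1 scale, so only the presence in both lists is compared. At 8q13.3 (chr8:72750281-72758714), the band of the muscle regulator gene MSC and of EYA1, the domain spanned 8434 bp and lay 109 kb from TC-32 acetylation. The remaining 4 were at 16p13.3 (chr16:629012-630332), 5q31.2 (chr5:138728271-138730798), 10q23.33 (chr10:96943030-96943721) and 1q21.3 (chr1:150951632-150952517). The last 2 domains, at 4q26 (chr4:115519549-115521027) and 7q36.1 (chr7:151328758-151329503), had BORIS folds of 6.36 and 5.80 and no SMC1 peak in either line.

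Distances from the members to TC-32 acetylation varied widely. The distance to the nearest TC-32 domain had a median of 28 kb and quartiles of 9.36 and 77.4 kb. A TC-32 domain lay within 1 kb of 44 members (2.62%), within 5 kb of 260 (15.5%), within 50 kb of 1078 (64.2%) and within 100 kb of 1339 (79.7%). No TC-32 domain lay within 500 kb of 47 members (2.80%). The distance expected from the number of TC-32 domains was not computed, so these values do not show whether members were unusually remote. Nearest TC-32 domains had a median −log10 q of 4.28 within 1 kb of a member, 5.03 within 5 kb and 6.68 over 5 kb away. A −log10 q of at least 5 was reached by 50% of those within 5 kb and 60.8% of those farther away. SMC1 in TC-71 was found at 56 of the 341 members over 100 kb from TC-32 acetylation (16.4%, 12.7 to 20.8%), an interval that reaches the background of 12.7%, and at 6.15% (3.56 to 9.80%) of those within 5 kb. The 3 distance classes in between had 10.4%, 11.1% and 12.3%. SMC1 in TC-71 alone lay at 23 of the 341 (6.74%, 4.32 to 9.95%, background 1.36%), and the nearer classes had 1.92% to 3.04%. The median width was 1018 bp within 5 kb and 1426 bp beyond 100 kb, and wider domains give a peak more room to overlap.

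**Figure D4:**
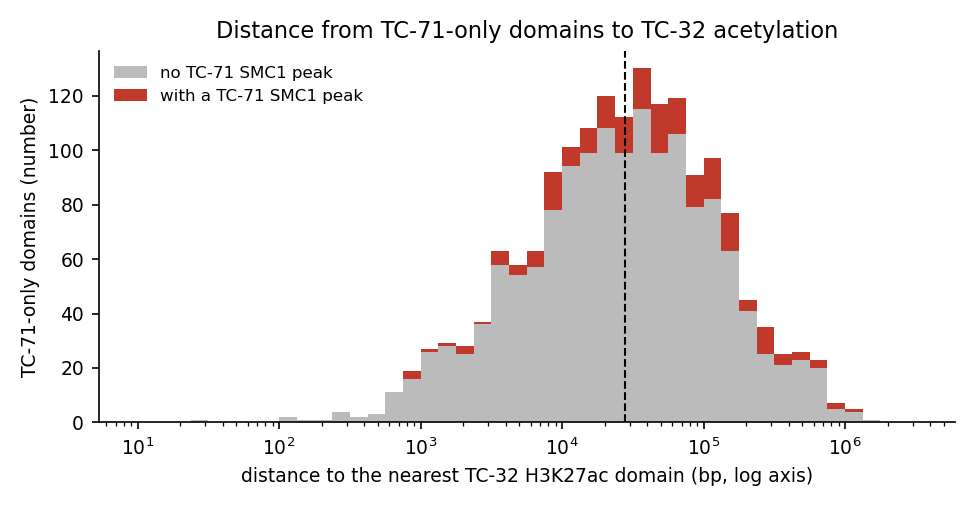
Number of TC-71-only domains (y axis) by distance to the nearest TC-32 H3K27ac domain (x axis, bp, log axis), stacked by whether they hold a TC-71 SMC1 peak (red) or not (grey). The dashed line marks the median of 28 kb, and 44 domains lie within 1 kb.

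The most isolated members lay in long stretches without TC-32 acetylation. The farthest was at 11q22.1 (chr11:99963056-99967259, fold 4.77), 1652 kb from any TC-32 domain, in the band of the neural adhesion gene CNTN5, and a second at 11q22.1 (chr11:100330245-100330516) was 1289 kb away. At 1p32.2, the band of the neuronal adaptor gene DAB1, 2 members (chr1:57737227-57741467 and chr1:57886602-57890927) were 1270 and 1120 kb from TC-32 acetylation. The second of them was strong, with a fold of 7.20, and carried an SMC1 peak of fold 7.88, with the nearest TC-32 SMC1 peak 589 kb away. It was the 1 domain with SMC1 among the 10 most isolated. Of these 10, the intervals at Xq21.31 (chrX:87681377-87681551), 1q21.1 (chr1:142618852-142619029) and the second at 11q22.1 were shorter than 500 bp.

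Among TC-71 domains, members stood alone, near shared domains or near other TC-71-only domains. These shares were not computed for the overlapping domains, so they do not show whether members were more or less isolated. With no other TC-71 domain of any rank within about 13 kb stood 769 members (45.8%, 43.4 to 48.2%), while 499 (29.7%, 27.5 to 32%) were in a stretch that also held a domain overlapping TC-32, and 412 (24.5%, 22.5 to 26.7%) had neighbours that were all absent from TC-32. Joining members within the same distance of each other gave 119 groups of 2 or more with 254 members (15.1%, 13.4 to 16.9%); 108 were pairs, 7 held 3 members, 3 held 4 and 1 held 5. In 7 of the 119 groups a TC-32 domain lay between members.

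The groups with most acetylation, by summed width times fold, were led by 1q32.1 (chr1:201232670-201256776, 2 members, 14.4 kb acetylated, highest fold 6.83). At 12q21.2 (chr12:79271656-79292545), the band of the synaptic vesicle gene SYT1, 2 members covered 19.2 kb, and one of them was the widest member of all at 17.8 kb, with a fold of 4.65. The 8p12 group (chr8:32428409-32476748), in the band of the growth factor gene NRG1, joined 5 members over 48.3 kb and held 1 SMC1 summit in TC-71 and none in TC-32. At 4p15.31 (chr4:20304384-20326902), the band of the axon guidance gene SLIT2, 3 members covered 15.8 kb at 319 kb from TC-32 acetylation. A single member of 11 kb at 10p12.1 (chr10:26026822-26037832, fold 7.55) lay 713 kb from any TC-32 domain. At 14q11.2 (chr14:22882395-22904308), the band of the T-cell receptor alpha and delta genes, 2 members covered 14.1 kb. Of the 10 groups ranked highest, those at 8p12, 21q22.3 (chr21:43181959-43205121) and 6q13 (chr6:70544418-70579128) held SMC1 summits of TC-71.

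Some members shared 1 interval between neighbouring TC-32 domains; the intervals named here were picked after their counts were seen. The 1680 members fell into 1323 such intervals, of which 1082 held 1 member and 11 held 5 or more, with 60 members in all. The fullest, at 6q13 (chr6:70507404-70995557), the band of the collagen gene COL19A1, was 488 kb long and held 7 members, 3 of them with SMC1 in TC-71. At 4p15.31 an interval of 716 kb (chr4:19985717-20701262) held 6 members among 25 TC-71 domains of any rank, none of them with SMC1 in TC-71. At 8q23.3 (chr8:112316148-112667534) and 7q33 (chr7:135662745-136336869) 6 members each lay between TC-32 domains, with SMC1 in TC-71 at 3 of the 6 in both. TC-32 had SMC1 peaks within these intervals, numbering 6 at 6q13, 5 at 4p15.31, 1 at 8q23.3 and 3 at 7q33.

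The 20 members with the highest −log10 q had folds of 4.90 to 9.94, and 7 of them held SMC1 in TC-71, 6 of these without a TC-32 peak, and 4 held BORIS. Over all 14566 TC-71 domains past the threshold these shares were 12.7%, 1.36% and 2%. The 20 were picked by rank, and higher-ranked members were also wider, so these small counts describe the named loci only. First was 17q25.3 (chr17:75522163-75525391, fold 9.94, −log10 q 75.8), which ranked 3 among all TC-71 domains and lay 36 kb from TC-32 acetylation without SMC1 in either line. At 8q23.2 (chr8:110702873-110704334, fold 4.90) SMC1 was listed in TC-71 with a fold of 2.68 and in TC-32 28.2 kb away at the nearest. A domain at 13q12.2 (chr13:28674116-28675624, fold 6.97), the band of the receptor kinase gene FLT3, had its nearest SMC1 peak 40.4 kb away in both lines. At 12q14.3 (chr12:66216268-66222021, fold 6.92), the band of HMGA2, an architectural chromatin protein of embryonic cells, the domain was 5754 bp wide and 215 kb from TC-32 acetylation. The 8q23.3 domain (chr8:112353331-112361515) was wider still, at 8185 bp, with a fold of 6.28, and held an SMC1 peak of fold 5.21 with the nearest TC-32 SMC1 peak 87.6 kb away. Over these 20 members the median distance to TC-32 acetylation was 36.1 kb, with a range of 0.8 to 1120 kb.

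Width and strength did not go together in every case. The 10 widest members spanned 9588 to 17810 bp with folds of 3.80 to 7.55, and 8 of them had SMC1 in neither line, near the 84.7% of all members. One that had it in both was at 3q26.33 (chr3:181427118-181436765), the band of the pluripotency and neural progenitor gene SOX2, where a domain of 9648 bp and a fold of 5.46 lay 191 kb from TC-32 acetylation, with SMC1 folds of 14.4 in TC-71 and 12 in TC-32. At 8p11.23 (chr8:37819298-37832457), the band of the adrenergic receptor gene ADRB3, a domain of 13160 bp with a fold of 5.11 had no SMC1 in either line. Conversely, the domains at 5q35.3 (chr5:180708330-180708659, fold 8.75) and 7q22.1 (chr7:102311821-102312175, fold 8.99) were 330 and 355 bp wide and were among the 20 highest ranked.

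Members were unevenly spread over chromosomes. They made up 20.8% (16.7 to 25.3%) of the TC-71 domains past the threshold on chromosome 13 and 19% (16.1 to 22.1%) on chromosome 8, against 4.46% (3.19 to 6.05%) on chromosome 19, 5.05% (2.85 to 8.19%) on chromosome 22 and 11.5% overall. Per length, chromosome 8 had the most, with 132 members or 0.902 per Mb against 0.553 overall. At a −log10 q of at least 10 the chromosome 8 share was 7.92%, against 3.20% of all such TC-71 domains. The lists themselves differed there, since TC-71 had 0.867 domains for each TC-32 domain on chromosome 8, 0.794 on chromosome 13 and 0.724 overall; on chromosome 19, with the lowest share of members, it had 0.824. Of the TC-71 SMC1 peaks, the share absent from TC-32 was 10.7% on chromosome 8, 10.9% on chromosome 13 and 9.69% overall. Copy number was not analysed here, and its part in these counts was not tested.

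**Figure D5:**
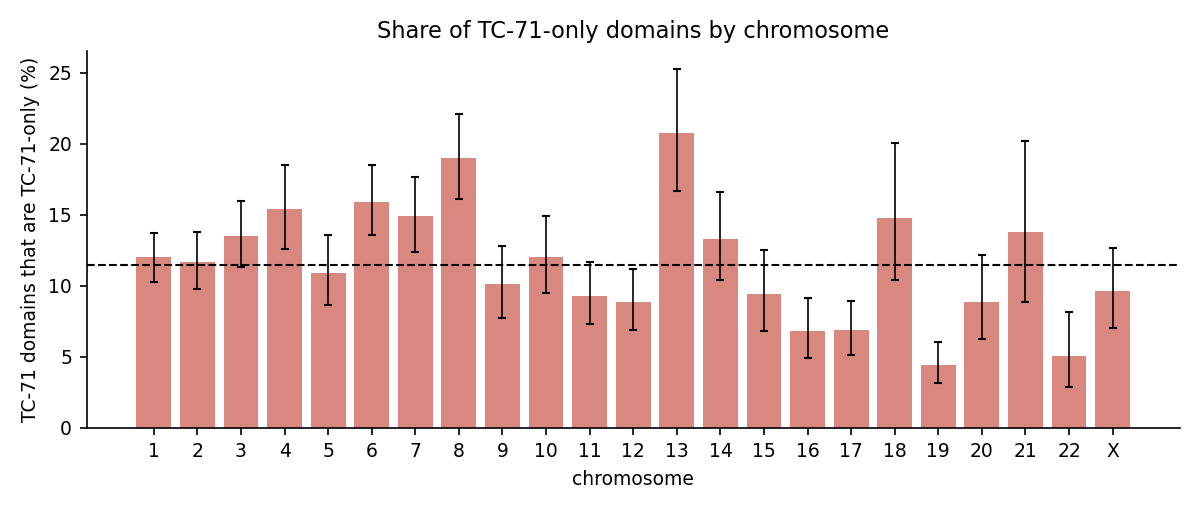
Share of the TC-71 H3K27ac domains with a −log10 q of at least 5 that are TC-71-only (bars, percent, with exact 95% intervals) on each chromosome, with the overall share of 11.5% as a dashed line. Chromosomes 13 and 8 stand at 20.8% and 19%, chromosomes 19 and 22 at 4.46% and 5.05%.

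The members also lay more often in darkly stained bands, which are poor in genes and replicate late. They were 21.5% (19.2 to 24%) of the TC-71 domains past the threshold in the darkest class of bands and 18.4% (16.3 to 20.5%) in the next, against 9.25% (8.64 to 9.88%) in unstained bands. The bands with most members were 8q23.3 with 15 of its 20 TC-71 domains, 1p21.3 with 14 of 30, 6q16.3 with 14 of 19, 8q24.21 with 14 of 37 and 7q33 with 13 of 26. At 8q23.3 TC-71 had 100 domains of any rank and TC-32 had 39, while SMC1 ran the other way with 21 peaks against 60. In 6q16.3, the band of the oncofetal RNA-binding protein gene LIN28B, TC-71 had 57 domains and TC-32 had 31, with 13 and 39 SMC1 peaks. Acetylated domains were thus more numerous and cohesin peaks fewer in TC-71 in both bands. Both were picked for their many TC-71-only domains, which favours such an excess of acetylated domains. Fewer cohesin peaks were not particular to them, since over all chromosomes the TC-71 list had 0.558 SMC1 peaks for each TC-32 peak. SMC1 peaks of TC-71 and TC-32 numbered 33 and 52 at 1p21.3, 40 and 72 at 8q24.21, and 36 and 55 at 7q33.

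A list of 32 bands that carry developmental and Ewing sarcoma genes was read in the same way. These bands held 110 members among 782 TC-71 domains past the threshold (14.1%, beside 11.5% over all bands), and 27 of the 32 held at least 1, where 559 of all 784 bands with such a domain did. The largest shares were at 6q16.3 (LIN28B, 14 of 19), 4p15.31 (SLIT2, 6 of 9) and 7p21.1 (10 of 27), so a few bands weigh heavily on the 14.1%. Bands with more domains have more room for a member, and the number of domains per band was not matched. The bands of the HOX clusters had 2 members of 8 domains for HOXA at 7p15.2, 2 of 42 for HOXB at 17q21.32, 4 of 60 for HOXC at 12q13.13 and 5 of 54 for HOXD at 2q31.1. For the PAX and TFAP2 genes it was 5 of 30 at 2q36.1 (PAX3), 4 of 37 at 1p36.13 (PAX7), 6 of 22 at 6p24.3 (TFAP2A) and 2 of 7 at 6p12.3 (TFAP2B). For the SOX genes it was 5 of 19 at 3q26.33 (SOX2), 1 of 5 at 17q24.3 (SOX9) and 1 of 52 at 22q13.1 (SOX10). At 7p21.1, with the mesenchymal regulator gene TWIST1 and HDAC9, 10 of 27 domains were members, none with SMC1 in TC-71. The 5 bands without a member were 12q24.21 (TBX3, TBX5), 3q24 (ZIC1, ZIC4), 5q35.2 (MSX2), Xp21.2 (the Ewing sarcoma target gene NR0B1) and 17q21.33 (COL1A1). In the bands of the fusion partners EWSR1 (22q12.2) and FLI1 (11q24.3) there was 1 member each, of 30 and 6 domains, and in that of the cyclin gene CCND1 (11q13.3) 2 of 15. A band is several megabases long and holds many other genes, so these counts place the members and do not assign them.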

How the data were processed

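The authors deposited 1 peak list per line and antibody, covering both samples; per the submitters' processing notes STAR 2.5.1b, SAMtools 1.3.1, Picard, deepTools 2.2.4, MACS2 2.1.1 and the build hg19 were used; roles and settings: not given in the sources used here. Each deposited line gives a score (10 times the −log10 q without decimals), a fold ratio over the input background, and −log10 of p and of q, of which the p served only to rank intervals where lists were cut to equal length. These values are the authors' and were used only within a list. Lines of the same interval were reduced to the one with the highest −log10 q, and chromosomes 1 to 22 and X were kept, which left out 26 TC-71 and 2 TC-32 H3K27ac intervals. Coordinates are hg19, counted from 1; bands came from the hg19 table in circlize 0.4.16 under R 4.3.3 and were assigned by the domain's midpoint. Overlap meant 1 shared base.

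The interval code, in Python 3.11.15, was tested on simulated data. It called scipy 1.17.1 for intervals, pandas 2.3.3 and numpy 2.4.6 for tables, and matplotlib 3.10.9 for plots. The gene and promoter tables at hand are of another build, so no gene or sequence was assigned to a domain. The members, the bands read as a list and all settings were chosen with earlier results of these data known. 2 bands of the planned list and 1 of the 20 loci of highest rank are not reported here. Named loci were taken from the 20 highest −log10 q, the 10 widest, the 10 most isolated, the 10 of highest fold, all with BORIS, the 10 highest groups and the 5 bands with most members. SMC1 and BORIS summits were read from the deposited summit offset. No test was run, and the depth per sample is unknown.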

Additional observations from a re-analysis of the deposited data

How the results depend on the processing

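No paired analysis was possible because both samples of a group share 1 list, so no sample could be left out either. There were 54 alternatives: 24 gave a value inside the main interval or a count under 1.5 times different, while 30 did not. For SMC1 in TC-71, lists of equal length left that list unchanged, so this setting, counted among the 24, could not differ. The number of members was 284 at a −log10 q of at least 10, 8613 without a threshold, 2537 when TC-32 domains needed a −log10 q of at least 5, and 2753 when TC-32 had to cover 50% of a domain. At a −log10 q of at least 10, members with SMC1 in TC-71 were 21.5%, with BORIS 3.87% and in groups 4.93%, the medians were 2008 bp, a fold of 5.31 and 39.5 kb, and the chromosome 8 share was 7.92%. Without a threshold, SMC1 lay at 5.09% (TC-71) and 6.36% (TC-32) and BORIS at 0.221%, with medians of 620 bp, 3.27 and 14.7 kb. With the TC-32 threshold, SMC1 shares were 13.2% and 15.3%, the medians 1385 bp and 36.3 kb, and the chromosome 8 share 27.2% against 17.4% of all such domains. For SMC1 in TC-71 and TC-32, a summit inside the domain gave 9.11% and 9.11%, and a peak within 1 kb 15.4% and 16.1%. A −log10 q of at least 5 for SMC1 gave 9.76% in TC-71, and lists of equal length gave 8.04% in TC-32; that setting does not apply to BORIS. Joining within 5 kb put 8.93% and within 25 kb 20.8% of members in groups. The alternatives for SMC1 in TC-71 alone at high rank and for chromosome 8 were chosen after seeing the data, and the former ran from 8.45% to 14.8%.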

Other observations

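Below the threshold, TC-71 listed 6933 more domains without a TC-32 counterpart, which is 58.9% (58 to 59.8%) of its 11768 domains there. In the classes of −log10 q from 2 to 3, 3 to 4 and 4 to 5 the TC-71-only share was 67.4%, 57.5% and 46.4%. SMC1 of TC-71 lay at 2.05%, 4.21% and 5.87% of these weak TC-71-only domains, and at 2.39%, 5.02% and 7.20% of the overlapping domains in the same classes. The order of the groups was therefore reversed among the strong domains alone, where from a −log10 q of 10 upward SMC1 of TC-71 was at 18.2%, 22.4% and 32% of TC-71-only and 12%, 13% and 14.6% of overlapping domains. The intervals of the groups overlap in the class of 10 to 15 and of 15 to 20.

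The narrowest members are given beside overlapping domains of the same width. Of the 346 members of 500 bp or less, 19 held SMC1 of TC-71 (5.49%, 3.34 to 8.44%) and 22 SMC1 of TC-32 (6.36%, 4.03 to 9.47%). Overlapping domains of this width held SMC1 of TC-71 at 10.5% (8.22 to 13.1%) and of TC-32 at 19.9% (16.8 to 23.2%), and the intervals of the groups overlap narrowly for TC-71. BORIS lay at 0 of the 346 (upper bound 1.06%) and at 5 of 639 overlapping domains (0.782%, 0.255 to 1.82%), a difference not detectable at these counts. The median fold of the narrow members was 4.04, close to the 4.05 of members of 1000 to 2000 bp, and 21 of them reached a −log10 q of 10. One of the 10 members with the highest fold was such an interval at 2p11.1 (chr2:91750665-91750975, 311 bp, fold 8.26), in a band next to the centromere.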
